A study of Homo sapiens with 6 samples.

Results

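Bone morphogenetic protein (BMP) signalling was followed through 10 genes in the human neuroblastoma line IMR32, an established line: ID1, ID2, ID3, ID4, SMAD6, SMAD7, BMP4, BMP7, MSX1 and MSX2. Every probe set whose platform annotation gave 1 of these symbols and no other was taken, which was 24 of the 54675 probe sets on the array (Affymetrix HG-U133 Plus 2.0, which reads each transcript with groups of short probes called probe sets). Cells of the treated group had received 118 µM teriflunomide for 24 h, and cells of the control group 0.1% DMSO, a solvent, for 24 h. The labels do not say whether the teriflunomide wells also held DMSO, so the differences below are between teriflunomide and DMSO wells and the part of the solvent cannot be told apart. In both groups the additions were made 12 h after the cells were plated, and each group had 3 arrays, called biological replicates by the titles. The sources used here do not say whether these were separate cultures, so the p-values below cover the array-to-array spread alone, which may be technical. Teriflunomide blocks dihydroorotate dehydrogenase, an enzyme of pyrimidine synthesis.

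BMPs are secreted ligands that bring type I and type II receptor kinases together. The receptors phosphorylate SMAD1, SMAD5 and SMAD9, which enter the nucleus with SMAD4 and switch on target genes. The ID genes are among the best known of these targets. ID proteins have a helix-loop-helix but no basic DNA-binding region, and they hold E proteins such as TCF3 and TCF4 away from DNA, which delays differentiation. SMAD6 and SMAD7 are induced by the same signal and inhibit it, and MSX1 and MSX2 encode homeobox repressors that BMPs induce in neural crest and craniofacial tissue. In chick and mouse embryos, BMPs from the dorsal aorta start the differentiation of sympathetic neurons, the lineage from which neuroblastoma arises.

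The bases just upstream of the transcription starts are shown for ID1, ID3, ID4 and MSX2, target genes with different responses below, and for SMAD6, whose window held the palindromic SMAD-binding element. Each window is the 250 bases before the start in RefSeq on GRCh38.p14, written 5′ to 3′ on the gene's own strand. Entries were found for 9 of the 10 genes, all but BMP7, and those not printed (ID2, MSX1, BMP4 and SMAD7) lie on chromosomes 2, 4, 14 and 18. Capitals mark matches to GTCTAGAC (the palindromic SMAD-binding element), GGCGCC (a GC-rich SMAD-binding element), TGACG (the core of cAMP response elements), CCAAT or TATAAA on either strand, and in ID1 the TATAAA matches of the opposite strands overlap.
ID1, chr20:31605039-31605288, plus strand: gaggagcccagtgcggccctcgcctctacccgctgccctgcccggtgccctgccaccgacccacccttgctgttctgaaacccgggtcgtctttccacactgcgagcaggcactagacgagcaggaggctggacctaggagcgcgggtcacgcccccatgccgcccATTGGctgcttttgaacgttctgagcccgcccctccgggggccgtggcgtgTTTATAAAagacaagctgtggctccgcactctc
ID3, chr1:23559502-23559751, minus strand: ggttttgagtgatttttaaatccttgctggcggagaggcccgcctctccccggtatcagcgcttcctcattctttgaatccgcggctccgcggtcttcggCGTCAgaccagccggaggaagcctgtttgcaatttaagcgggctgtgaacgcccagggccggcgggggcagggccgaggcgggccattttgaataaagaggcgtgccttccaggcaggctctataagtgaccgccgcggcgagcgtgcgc
ID4, chr6:19837120-19837369, plus strand: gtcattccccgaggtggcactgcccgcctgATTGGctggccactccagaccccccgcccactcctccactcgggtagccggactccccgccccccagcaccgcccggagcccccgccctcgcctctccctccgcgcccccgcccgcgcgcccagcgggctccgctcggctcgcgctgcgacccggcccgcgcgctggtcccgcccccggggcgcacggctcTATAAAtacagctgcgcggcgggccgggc
MSX2, chr5:174724332-174724581, plus strand: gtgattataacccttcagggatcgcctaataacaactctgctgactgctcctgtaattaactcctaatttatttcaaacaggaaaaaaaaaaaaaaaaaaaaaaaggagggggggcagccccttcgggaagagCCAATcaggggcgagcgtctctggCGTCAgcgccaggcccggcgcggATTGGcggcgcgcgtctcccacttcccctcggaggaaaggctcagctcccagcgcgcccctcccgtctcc
SMAD6, chr15:66701986-66702235, plus strand: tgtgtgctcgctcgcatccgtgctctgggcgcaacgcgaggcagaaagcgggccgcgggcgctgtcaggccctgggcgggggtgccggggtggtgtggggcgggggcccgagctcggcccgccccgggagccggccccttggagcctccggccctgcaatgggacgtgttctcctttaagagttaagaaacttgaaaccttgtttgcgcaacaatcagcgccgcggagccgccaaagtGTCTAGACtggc
The palindrome GTCTAGAC began 12 bases before the SMAD6 start and was found in 0.182% of 35116 windows of the same length. GGCGCC occurred in 16.38% of those windows and, among these genes, in 1 of the BMP4 windows. TGACG was present upstream of ID3 and MSX2 and in 21.2% of all windows. CCAAT, which was present upstream of ID1, ID2, ID4, MSX1 and MSX2, was held by 32.0% of all windows. TATAAA lay 29 bases before the ID4 start and near the ID1 start, was present in 1 of the SMAD7 windows, and occurred in 10.7% of all windows. These are matches of letters in a short window and do not show binding.

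The ID and MSX genes changed unevenly with teriflunomide: at their brightest probe sets ID4 rose 3.42-fold, MSX2 2.87-fold, ID3 2.08-fold and SMAD7 1.50-fold, and ID1, ID2 and SMAD6 did not pass the test. Of the 24 probe sets, 20 passed the filter on dim values and were tested with limma. The 4 left out were 1 each of ID4 (229386_at), SMAD6 (209887_at), BMP4 (211518_s_at) and MSX2 (205556_at), and 7 of the 24 ranged by less than 0.1 over the 6 arrays. The 4 read between 2.18 and 2.38 on all arrays. DMSO replicate 1 read above the other DMSO arrays for most of these genes, and results that rest on it are given with and without it below. Of the 20, 7 were higher with teriflunomide, 1 was lower and 12 did not pass an adjusted p of 0.05. Over all 27290 probe sets tested, 23.7% were higher and 25.2% were lower, so a call by itself was common on these arrays. Of the 20, 6 were called and at least 2-fold higher, namely those of ID3, 3 of ID4 and 2 of MSX2, against 5.01% of all probe sets. The groups' arrays did not overlap, with teriflunomide above, for 9 of the 20 and with teriflunomide below for 1, and the shares over all probe sets were 29.3% and 30.8%. The median difference of the 20 was 0.23 on the log2 scale, and that of all tested probe sets was -0.00055. In such bulk RNA, fewer cells of a type and less RNA per cell cannot be told apart.

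**Figure D1:**
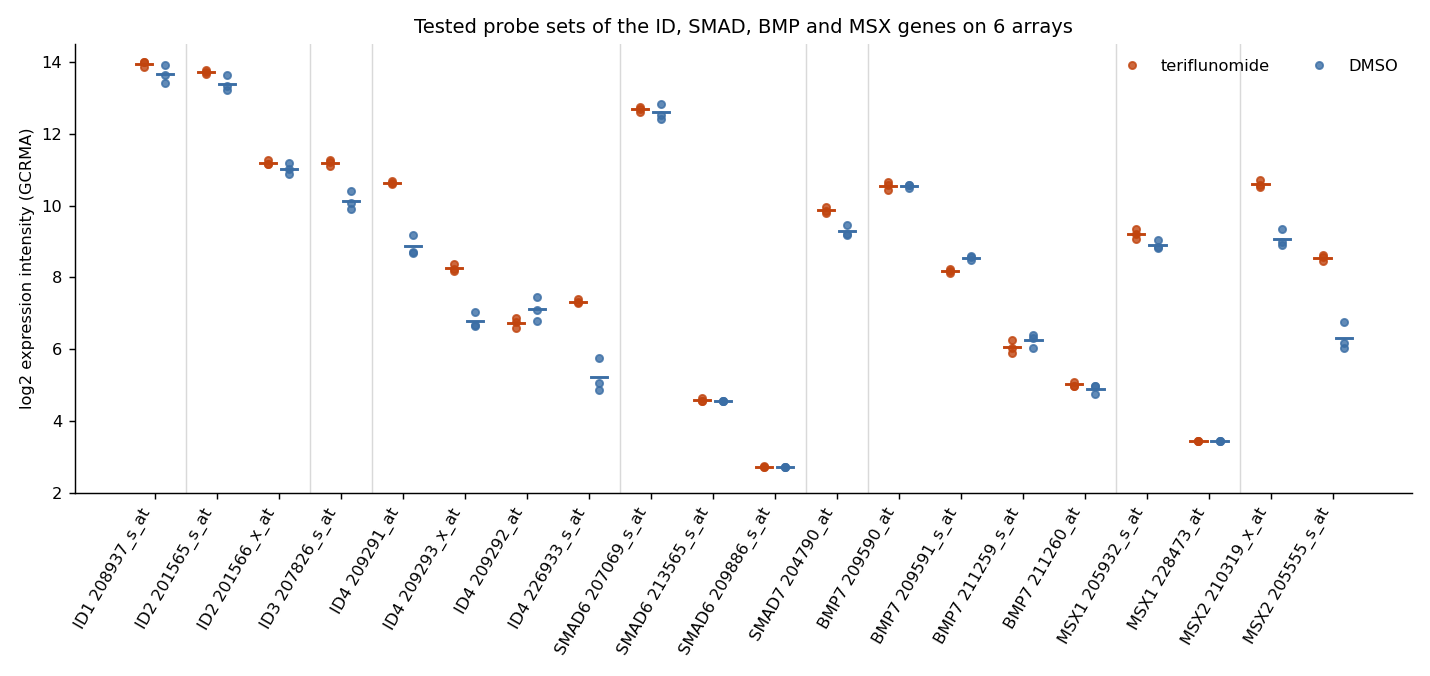
Log2 intensity of the tested probe sets of the BMP, SMAD, ID and MSX genes on each array, 3 teriflunomide and 3 DMSO arrays, with lines at the group means. ID3, ID4 and MSX2 show separate groups, except for the ID4 probe set 209292_at, whereas ID1 and SMAD6 overlap.

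ID4 had the largest rise among the ID genes. Its brightest probe set, 209291_at, read 10.62, 10.59 and 10.70 on the teriflunomide arrays and 9.19, 8.68 and 8.72 on the DMSO arrays (log2 intensity, replicates 1 to 3). All teriflunomide arrays lay above all DMSO arrays, and the difference was 1.77 ± 0.15 (log2, SE), a 3.42-fold rise (limma adjusted p = 0.000497). Probe set 209293_x_at gave 8.17, 8.37 and 8.24 with teriflunomide and 7.04, 6.67 and 6.63 with DMSO, and rose by 1.48 (adjusted p = 0.000551). Probe set 226933_s_at gave 7.28, 7.38 and 7.31 with teriflunomide and 5.75, 4.87 and 5.04 with DMSO, and rose by 2.10 (adjusted p = 0.00136). These 3 probe sets moved the same way with no overlap. The fourth tested one, 209292_at, did not: it read 6.57, 6.87 and 6.77 with teriflunomide and 7.44, 6.79 and 7.09 with DMSO. Its groups overlapped, its difference was -0.37 and it did not pass the test (adjusted p = 0.151), so the ID4 probe sets did not all move together.

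ID3, which like the other ID proteins binds E proteins, was measured by 1 probe set, 207826_s_at. It read 11.09, 11.26 and 11.20 on the teriflunomide arrays and 10.41, 9.90 and 10.08 on the DMSO arrays. The groups were separate, and the gene was 2.08-fold higher with teriflunomide (1.05 ± 0.14 on the log2 scale, limma adjusted p = 0.00249). ID1 and ID2 stood higher on the intensity scale and changed less. ID1 (208937_s_at) gave 13.99, 13.99 and 13.86 with teriflunomide and 13.90, 13.41 and 13.64 with DMSO, and DMSO replicate 1 lay above teriflunomide replicate 3. Its difference of 0.30 ± 0.13 did not pass (adjusted p = 0.121), with a 95% interval from -0.039 to 0.64. ID2 (201565_s_at) gave 13.72, 13.66 and 13.77 with teriflunomide and 13.65, 13.23 and 13.32 with DMSO. The ID2 groups did not overlap, but by a small margin, and the difference of 0.32 ± 0.12 did not pass (adjusted p = 0.0743). The other ID2 probe set, 201566_x_at, differed by 0.17 (adjusted p = 0.165).

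The MSX genes, homeobox repressors, also differed from each other. MSX2 probe set 210319_x_at read 10.51, 10.56 and 10.71 on the teriflunomide arrays and 9.33, 8.90 and 8.98 on the DMSO arrays. It was 2.87-fold higher with teriflunomide with no overlap (1.52 ± 0.13, limma adjusted p = 0.000532). The second MSX2 probe set, 205555_s_at, gave 8.45, 8.57 and 8.62 with teriflunomide and 6.75, 6.04 and 6.17 with DMSO, a 4.67-fold rise (adjusted p = 0.000628). MSX1 (205932_s_at) read 9.06, 9.19 and 9.34 with teriflunomide and 9.04, 8.82 and 8.85 with DMSO. Its groups were separated only by the gap between teriflunomide replicate 1 and DMSO replicate 1. The MSX1 difference of 0.30 ± 0.10 had an adjusted p of 0.0522 over all probe sets and of 0.0404 with 1 probe set per gene, so it lay on either side of the threshold. The other MSX1 probe set, 228473_at, stood at 3.43 on the 6 arrays, with a range under 0.1.

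Of the inhibitory SMADs, SMAD7 rose and SMAD6 did not pass the test. SMAD7, which blocks both BMP and TGF-beta receptors, read 9.80, 9.95 and 9.84 on the teriflunomide arrays and 9.46, 9.21 and 9.17 on the DMSO arrays (204790_at). The groups were separate, and the difference was 0.58 ± 0.091 (limma adjusted p = 0.00467). SMAD6, which acts mainly on BMP receptors, gave 12.68, 12.74 and 12.62 with teriflunomide and 12.84, 12.42 and 12.53 with DMSO (207069_s_at). DMSO replicate 1 was the highest of the 6 SMAD6 values, and the difference of 0.082 ± 0.12 did not pass (adjusted p = 0.591), with a 95% interval from -0.22 to 0.38. The other tested SMAD6 probe sets, 213565_s_at and 209886_s_at, ranged by less than 0.1 over the 6 arrays.

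Of the ligands, BMP7 was measured and BMP4 was not. The single BMP4 probe set stood at 2.18, the lowest value on the arrays, in all 6 of them. BMP7 was read by 4 probe sets. The brightest, 209590_at, gave 10.65, 10.56 and 10.43 with teriflunomide and 10.57, 10.48 and 10.58 with DMSO, a difference of 0.0042 (limma adjusted p = 0.976). Probe set 209591_s_at gave 8.18, 8.23 and 8.11 with teriflunomide and 8.58, 8.47 and 8.56 with DMSO, and fell by 0.36 with no overlap (adjusted p = 0.00270). The remaining pair differed by -0.19 and 0.11 and did not pass (adjusted p = 0.300 and 0.279). BMP7 probe sets thus did not give 1 direction.

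**Figure D2:**
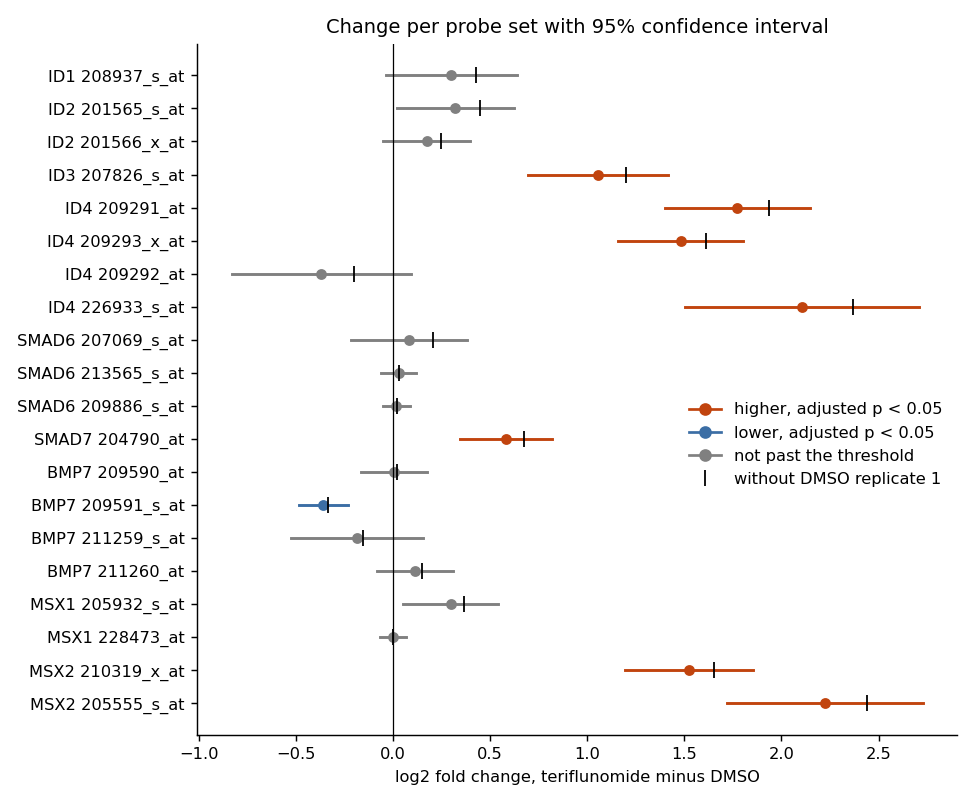
Log2 difference, teriflunomide minus DMSO, for the 20 tested probe sets, with 95% confidence intervals from limma (3 arrays per group) and the difference without DMSO replicate 1 as a black tick. The probe sets of ID3, MSX2 and SMAD7 and 3 of ID4 lie right of 0, 1 of BMP7 lies left of 0, and the intervals of the ID1, SMAD6 and 209590_at estimates include 0.

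With 1 probe set per gene (the brightest tested), 9 members were measured and 5 were higher with teriflunomide, ID3, ID4, SMAD7, MSX1 and MSX2. This compares with 29.7% of all 11998 genes higher and 28.9% lower. None of the 9 was lower by limma at an adjusted p under 0.05. Without DMSO replicate 1, 8 of the 9 were higher, with ID1 (adjusted p = 0.0186), ID2 (0.00363) and SMAD6 (0.0413) added, and at the probe-set level 10 of 20 were higher. In that fit 26.4% of all genes and 21.2% of all probe sets were higher. BMP7 was the member not called (log2 difference 0.017). DMSO replicate 1 was singled out from the values of these same genes, where it mostly read highest of the DMSO arrays. Leaving it out therefore raises most of their differences by construction, and no other single omission gave calls of ID1, ID2 or SMAD6. MSX1 was no longer called when any 1 of teriflunomide replicates 2 and 3 or DMSO replicates 2 and 3 was left out (adjusted p from 0.0983 to 0.117), which left 4 members higher. Its call was also lost when its 2 probe sets were averaged (0.15, adjusted p = 0.0547) and when the plain probe set was preferred (a difference of 0, adjusted p = 1), without the filter (adjusted p = 0.109) and with values under 5 raised to 5 (0.0614).

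DMSO replicate 1 stood apart for these genes. It was the highest of the DMSO arrays for 14 of the 17 tested probe sets with a range of at least 0.1, whereas it was the highest for 33.2% of all 25831 such probe sets on the arrays. Its median deviation from the DMSO mean was 0.25 over the 17 probe sets, against -0.17 for DMSO replicate 2 and -0.078 for DMSO replicate 3. The teriflunomide arrays had medians of -0.040, 0.055 and -0.023. Set against DMSO replicate 1 alone, the teriflunomide mean differed by 0.047 for ID1, 0.072 for ID2, 0.77 for ID3 and 1.45 for ID4 (209291_at). The same differences were -0.16 for SMAD6, 0.40 for SMAD7, 0.16 for MSX1 and 1.26 for MSX2 (210319_x_at). Without that array the differences were 0.42 for ID1, 0.45 for ID2, 1.20 for ID3 and 1.94 for ID4.

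**Figure D3:**
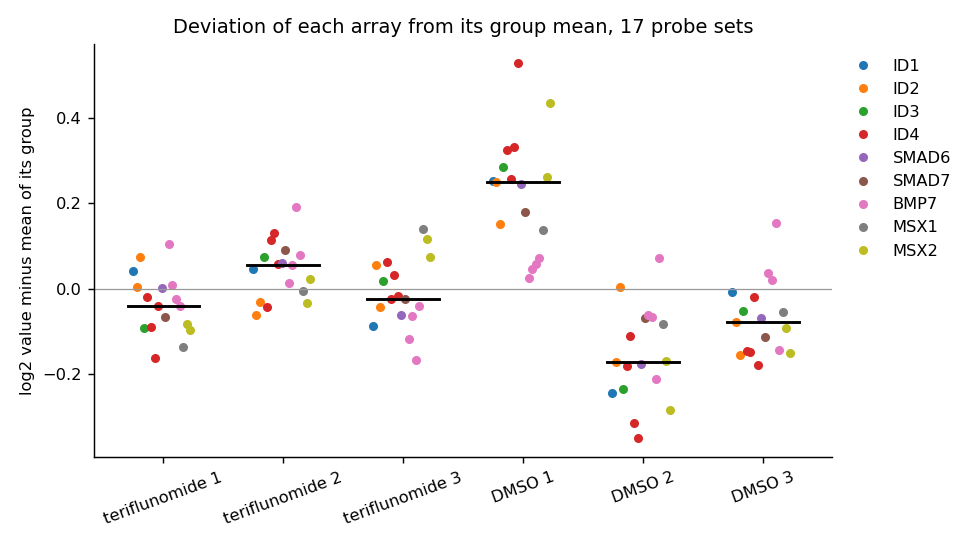
Deviation of each array from its group mean (log2 intensity) for the 17 tested member probe sets with a range of at least 0.1, teriflunomide arrays to the left of DMSO arrays, with each array's median as a line. DMSO replicate 1 lies above 0 in its median (0.25), and the other DMSO arrays lie below 0.

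The rest of the pathway held calls in both directions, at shares near those of all genes. Apart from the members, 119 genes were listed, of which 7 lacked a probe set annotated to them alone, 32 were below the filter and 80 were tested. Of these, 22 were higher, 25 were lower and 33 were not called. That was 27.5% higher and 31.2% lower, against 29.7% and 28.9% of all genes, and their median difference was 0.0036 against 0.0015 for all genes. The members' median was 0.32. These lists were chosen with earlier results of these data known.

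Of 9 tested receptor and co-receptor genes, 3 were higher, 3 were lower and 3 were not called. That is 33.3% each way and near the 29.7% and 28.9% of all genes. BMPR1A had no probe set annotated to it alone and HJV was below the filter, so neither was tested. BMPR2, the type II receptor for BMPs, had the largest fall. Its probe set 225144_at read 7.32, 7.69 and 7.56 on the teriflunomide arrays and 9.98, 9.83 and 9.95 on the DMSO arrays, and fell by 2.39 (limma adjusted p = 9.3e-05 over probe sets). A second bright BMPR2 probe set, 231873_at, fell by 2.03. The signal at 209920_at did not change past the test (-0.030, adjusted p = 0.739), and the dim 238516_at rose by 1.03, so 2 of the 5 tested BMPR2 probe sets carried the fall. Averaged over its probe sets, BMPR2 fell by 0.68. ACVR1, a type I receptor for BMPs, gave 10.09, 10.07 and 10.11 with teriflunomide and 9.14, 9.09 and 9.04 with DMSO, and was 2.00-fold higher. ACVR2A, a type II receptor shared with activins, rose by 0.31.

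For the co-receptors and remaining receptors, several values varied with the probe set. RGMB, a membrane-anchored BMP co-receptor, gave 8.62, 8.51 and 8.39 with teriflunomide and 5.84, 5.74 and 5.91 with DMSO at 227339_at, a rise of 2.68. Another RGMB probe set, 226989_at, fell by 1.27, so no single direction can be given for the gene, and their average was not called (0.26, adjusted p = 0.0694). RGMA, a co-receptor of the same family, fell by 0.38, and ACVRL1, a type I receptor best known from endothelium, fell by 0.47 at the brighter of its probe sets. The RGMA call was lost without teriflunomide replicate 1 (adjusted p = 0.112), 2 (0.0849) or 3 (0.0654) or DMSO replicate 2 (0.0629). The ACVRL1 call was lost without teriflunomide replicate 1 (0.0578) or 3 (0.0571) or DMSO replicate 2 (0.0703) or 3 (0.0784), and its 2 probe sets averaged -0.087. ACVR2B (-0.027), a type II receptor, BMPR1B (-0.14), a type I receptor, and ENG (0.34), a co-receptor near the floor, were not called. ACVR2B was called when its probe sets were averaged (-0.25), and ENG without teriflunomide replicate 3 (0.51).

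Of the 6 tested receptor-activated and common SMADs, 2 were higher, 2 were lower and 2 were not called. That was 33.3% each way, near the 29.7% higher and 28.9% lower of all genes. SMAD9 read 13.79, 13.91 and 13.83 on the teriflunomide arrays and 13.30, 13.22 and 13.06 on the DMSO arrays, and rose by 0.65 (227719_at), with a second probe set at 1.11. SMAD1 gave 10.97, 10.82 and 10.99 with teriflunomide and 10.56, 10.41 and 10.40 with DMSO, and rose by 0.47, with a second probe set at 0.53. Both genes had separate groups. SMAD5 (0.061) and SMAD4 (-0.039), the common partner, were not called at their brightest probe sets, and another choice of probe set turned their direction and gave a call (-0.10 for the SMAD5 average, adjusted p = 0.0437, and 0.27 for the plain SMAD4 probe set, adjusted p = 0.00417). SMAD3, of the TGF-beta and activin branch, fell by 0.54 at its brightest probe set and by 0.29 on average. SMAD2 of the same branch fell by 0.28 at its brightest probe set and rose by 0.74 at another, the average was 0.032, and the fall was not called without DMSO replicate 3 (adjusted p = 0.0601).

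**Figure D4:**
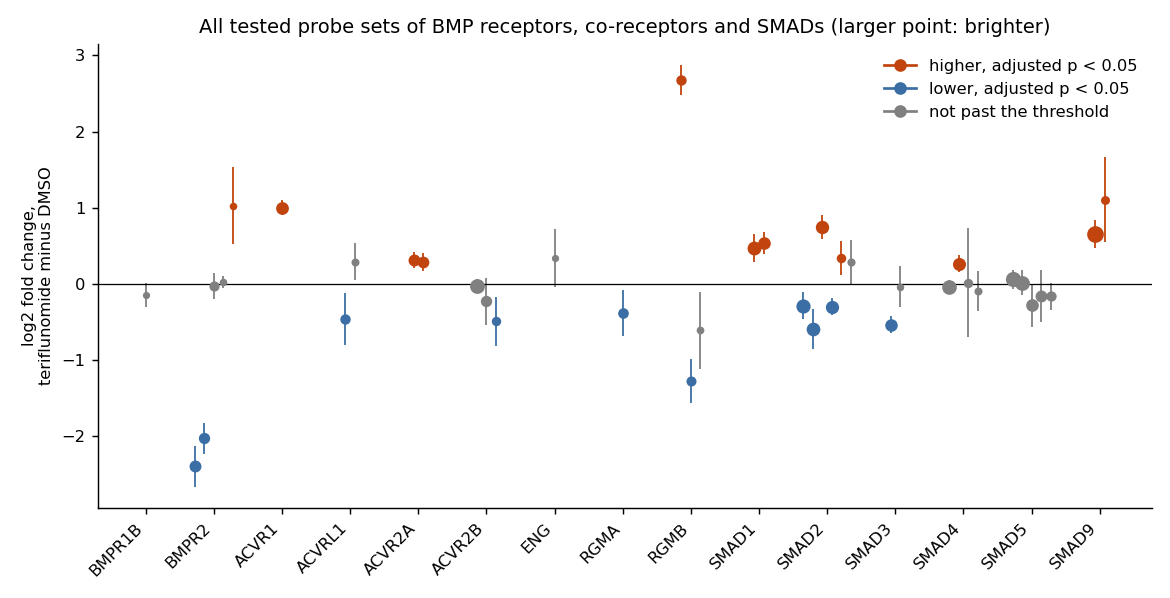
Log2 difference, teriflunomide minus DMSO, of each tested probe set of the BMP receptors, co-receptors and SMADs with 95% confidence intervals (3 arrays per group), where larger points are brighter probe sets. BMPR2 and RGMB have probe sets on both sides of 0, whereas those of SMAD1 and SMAD9 lie above 0.

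Probe sets of 1 gene were called in opposite directions for 8 of the 53 pathway genes with a call from any probe set: BMPR2, LDLRAD4, NEDD4L, PMEPA1, RGMB, SMAD2, SMURF2 and YY1. None of the 5 members with a called probe set showed this. ID3 and SMAD7 could not, having 1 probe set each, and the share over all genes was not counted.

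Antagonists and inhibitors also held calls in both directions. Of 7 tested extracellular antagonists and modulators, 1 was higher, 1 was lower and 5 were not called. That was 14.3% each way, against 29.7% higher and 28.9% lower over all genes. FSTL1, a secreted follistatin-like protein, rose by 0.73 at its bright probe set (0.012 averaged with a dim one). FSTL3 fell by 0.32 with means of 3.26 and 3.58 (teriflunomide and DMSO), near the floor, and its groups were not separate. Its limma adjusted p was 0.04998 with 1 probe set per gene and 0.0636 over all probe sets, so it lay on either side of the threshold. The FSTL3 call was lost without teriflunomide replicate 2 (adjusted p = 0.141) or 3 (0.129) or DMSO replicate 1 (0.121) or 3 (0.122). Of 14 intracellular inhibitors other than SMAD6 and SMAD7, 3 were higher, 6 were lower and 5 were not called. SKIL, a corepressor that binds SMADs, rose by 0.59, its relative SKI fell by 0.37, and FKBP1A, which keeps type I receptors inactive, fell by 0.23. The FKBP1A call was lost without teriflunomide replicate 3 (adjusted p = 0.0818) or DMSO replicate 1 (0.0736), 2 (0.0829) or 3 (0.0930). Of the 3 other ligands tested, BMP8B fell by 0.37, which was not called without DMSO replicate 2 (adjusted p = 0.0511) or 3 (0.0539), and 2 were not called. That was 33.3% lower, against 28.9% of all genes.

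Among 10 SMAD cofactors, 5 were higher and 3 were lower. ZEB2, a SMAD-binding repressor, read 6.61, 6.60 and 6.41 on the teriflunomide arrays and 5.43, 4.61 and 5.02 on the DMSO arrays, and was 2.87-fold higher. HIVEP1 rose by 0.72, ZNF423 fell by 0.53, and RUNX3 fell by 0.87 at a mean of 4.06 with teriflunomide and 4.93 with DMSO, a call lost when values under 5 were raised to 5. In the TGF-beta list, 5 of 12 were higher (41.7%) and 4 were lower (33.3%), against the same shares of all genes. TGFBR2, the type II receptor, rose by 1.08 and KLF10, an early TGF-beta response gene, rose by 0.93. The co-receptor TGFBR3 fell by 0.50. The dim TGFB3 (2.91 with teriflunomide and 3.48 with DMSO) fell by 0.57, a call also lost when values under 5 were raised to 5. LDLRAD4 and PMEPA1 were counted as higher by their brightest probe sets (0.61 and 0.74). Other probe sets of these genes fell, by 4.12 for LDLRAD4 (207996_s_at) and 1.52 for PMEPA1 (222450_at).

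Of 12 other genes known to respond to BMPs that were tested, 2 were higher, 3 were lower and 7 were not called. That was 16.7% higher and 25.0% lower, against 29.7% and 28.9% of all genes. ATOH8, a bHLH gene and BMP target, read 5.19, 5.23 and 5.22 on the teriflunomide arrays and 7.17, 6.69 and 6.79 on the DMSO arrays (1558706_a_at), and was 3.18-fold lower. Its groups were far apart, and a second probe set fell by 1.30. HAND1, another bHLH gene, gave 9.53, 9.81 and 9.27 with teriflunomide and 10.75, 10.56 and 10.48 with DMSO, and was 2.09-fold lower. The genes TBX2 (0.84), GATA3 (0.35) and DLX5 (-0.90) were the rest of the called ones and are named after their values were seen. DLX5 had means of 2.96 with teriflunomide and 3.86 with DMSO, near the floor. The count depends on the probe set for TBX3, which was not called at its brightest (0.18) or at the dim 222917_s_at (0.11). It was called higher at 219682_s_at (0.42, limma adjusted p = 0.0321) and 229576_s_at (0.69, 0.0374). Among 8 bHLH partners and targets of ID proteins, TWIST1 rose by 0.70 and 5 were not called. The E protein TCF4 fell by 0.54 at its brightest probe set and the E protein TCF3 fell by 0.25. These calls were 12.5% higher and 25.0% lower, against the same shares of all genes. TCF3 gave 0.062 and no call when a plain probe set was preferred, and -0.061 and no call when its probe sets were averaged.

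**Figure D5:**
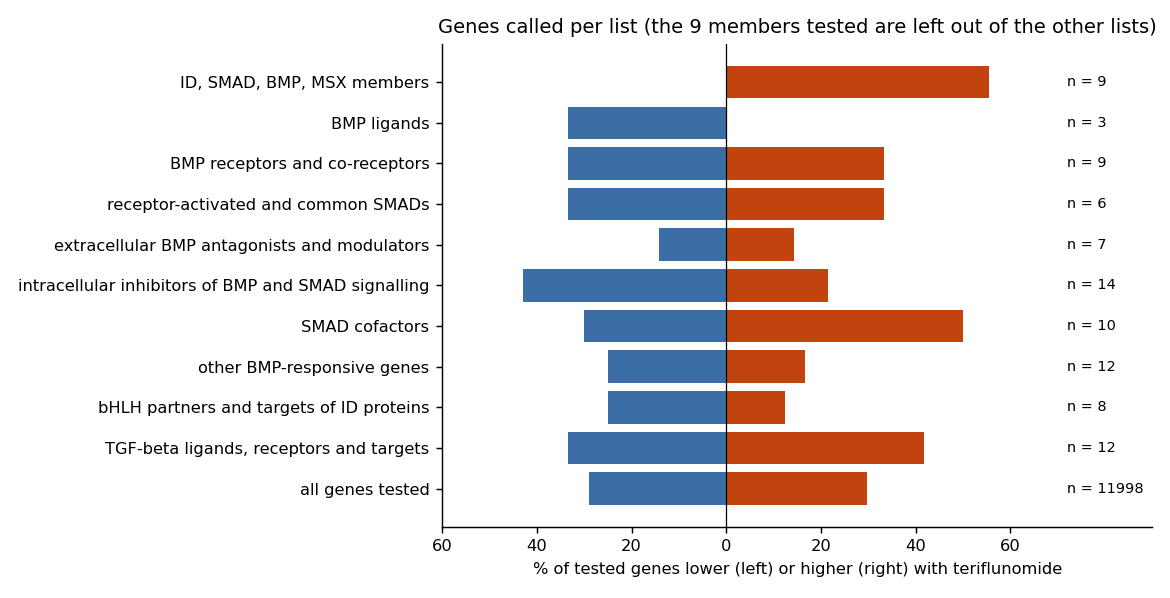
Share of the tested genes of each list, in percent, that were lower (bars to the left) or higher (bars to the right) with teriflunomide, and n, the number tested (limma adjusted p under 0.05, 1 probe set per gene), with the members left out of the other lists. The members have 5 higher and 0 lower of 9, while the other pathway lists hold calls in both directions, except the ligands with 1 lower and 0 higher.

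Some facts of all arrays bear on these values. Correlations of log2 values were 0.998 to 0.999 within groups and 0.989 to 0.990 between groups, and 33.8% to 34.2% of the probe sets of an array stood at the lowest value. Of 8 neuroblastoma markers, 7 had a probe set and 5 lay above a log2 intensity of 5, with MYCN at 14.69 with teriflunomide and 15.11 with DMSO, whereas the catecholamine enzymes TH (2.19 and 2.18) and DBH (2.47 and 3.41) stood at or near the floor. Of 16 markers of other cell types, 14 had a probe set and 3 lay above 5, the matrix genes COL1A1 (11.75 with teriflunomide and 10.81 with DMSO) and LUM (12.01 and 11.40) and the receptor PDGFRB. COL1A1 and LUM both rose at these probe sets. COL1A1 also rose at 202310_s_at (0.95), but its 217430_x_at (-0.092) and 202311_s_at (0.22) and LUM 229554_at (0.017) were not called. The summed linear intensity of all 14 was 7589 to 7755 on the teriflunomide arrays and 4343 to 4787 on the DMSO arrays, while PTPRC, CD3E, CDH5, KRT5, KRT14, DCN and COL1A2 stood at or within 0.1 of the lowest value. The 3′ minus 5′ signal of ACTB, a measure of RNA integrity and labelling, was 1.62 ± 0.070 with teriflunomide and 1.36 ± 0.032 with DMSO (SD, n = 3 each, log2), with an exact two-sided permutation p of 0.1, the smallest that 3 against 3 arrays allow. The same measure of GAPDH was 0.063 ± 0.021 with teriflunomide and 0.049 ± 0.0060 with DMSO (p = 0.4 by the same exact permutation test, n = 3 each). The part of these markers and of RNA quality in the members' changes was not tested.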

How the data were processed

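RNA from 3 teriflunomide and 3 DMSO samples of IMR32 cells was hybridised to single-colour arrays. The authors deposited log2 values made with GCRMA, per the submitters' processing notes (its version is not given in the sources used here). GCRMA usually corrects background by probe sequence, equalises array distributions and summarises probes, which compresses dim values at a floor. They were used as deposited. By the platform annotation, 41097 probe sets carried 1 symbol, 1801 several and 11777 none. Probe sets below the median of the array on more than 3 arrays were left out, which left 27290 after 62 controls were removed. Groups were compared with limma 3.58.1 (R 4.3.3, lmFit and eBayes, two-sided, Benjamini-Hochberg, threshold 0.05), tested on simulated data. Fits per gene used the brightest tested probe set (11998 genes). Named genes were all members, receptors and SMADs and, per other list, the 2 called genes with the largest rise and the 2 with the largest fall. The members and lists were chosen with earlier results of these data known. Replicate numbers did not clearly pair the arrays (correlations of deviations 0.13, 0.15 and -0.045, and 4 of 6 arrays correlated best with their own number). Alternatives covered the filter, a floor, centring, quantile normalization, eBayes options, array weights, choice of probe set, a replicate block and leaving out each array. Precision is limited by the number of arrays. Upstream windows came from RefSeq (GRCh38.p14).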

Additional observations from a re-analysis of the deposited data

How the results depend on the processing

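The calls of ID3 (log2 difference 0.94 to 1.20), SMAD7 (0.53 to 0.67), ID4 at 209291_at (1.68 to 1.94), MSX2 at 210319_x_at (1.44 to 1.65) and BMP7 at 209591_s_at (-0.39 to -0.33) held in every alternative run. Member probe sets called higher numbered 7 to 10 over the alternatives, and 1 was called lower in each. With 1 probe set per gene, leaving out 1 array at a time gave 4 to 8 members higher. The fit without DMSO replicate 1 gave 8 members and 10 probe sets higher, against 26.4% of all genes and 21.2% of all probe sets. That array was singled out from the members' own values. The shares over all genes in the other alternatives are not given here. Per gene, ID2 was called in 6 of 16 alternatives, ID1 in 2 and MSX1 in 7. With a replicate block, 7 probe sets of the members were higher and 1 lower, 4 members were higher per gene (MSX1 was lost, adjusted p = 0.102), the calls of ACVRL1 (adjusted p = 0.0816) and SMAD2 (0.0584) were lost, and 4 of the 6 arrays correlated best with their own number. The direction turned for TCF3 (0.062) and SMAD4 (0.27) when plain _at probe sets were preferred, and for SMAD2 (0.032) and SMAD5 (-0.10) when the gene's probe sets were averaged. Averaging also ended the calls of MSX1 (0.15), FSTL1 (0.012), TCF3 (-0.061), ACVRL1 (-0.087) and RGMB (0.26), and the plain probe set those of MSX1 (0) and FSTL3. Testing all probe sets ended those of MSX1, FSTL3, FKBP1A, ACVRL1, RGMA and SMAD2. Raising values under log2 5 to 5 ended those of MSX1, RUNX3, FSTL3, TGFB3 and RGMA. BMP8B, FKBP1A, FSTL3, ACVRL1, RGMA and SMAD2 each lost the call without some single array. The cause was not tested. Values near the floor of 2.18 limit what dim probe sets can show.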

Other observations

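A probe set annotated to both ID2 and ID2B (213931_at) lies outside the 24. It read 10.57, 10.42 and 10.37 on the teriflunomide arrays and 10.29, 9.47 and 9.82 on the DMSO arrays. Its groups did not overlap, DMSO replicate 1 was again the highest DMSO array, and the difference of 0.59 did not pass (limma adjusted p = 0.0740). TCF4, an E protein that ID proteins bind, was lower at all 8 of its probe sets, which fell by 0.54 to 1.41 on the log2 scale.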
